A study of Mus musculus with 8 samples.

Results

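Mouse embryonic stem cells that lack 3 linker histone H1 genes were compared with control embryonic stem cells by RNA sequencing. The comparison uses the 4 samples labelled H1-TKO replicate 1 and 2 and H1-WT replicate 1 and 2, of 8 samples in the series. The other 4 samples concern depletion of the SUMO-conjugating enzyme Ubc9 with doxycycline, were prepared with another kit, and are not analysed here. TKO stands for triple knockout. According to the publication the labels cite as the source of the cells, the line lacks both copies of the genes for H1c, H1d and H1e (Hist1h1c, Hist1h1d and Hist1h1e). The labels name no further allele for either group and no agent that the H1 cells received beyond their medium. All cultures were kept in 2i/LIF, which combines kinase inhibitors with leukaemia inhibitory factor and holds mouse stem cells in the naive state, over 3 to 4 passages. Each group has 2 libraries, made from polyadenylated RNA. The labels do not say whether these came from separate cultures, so p-values measure only the spread between the libraries, which may be technical. No second line of either genotype is named, so the deletion and the history of the line cannot be told apart.

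Linker histones bind the nucleosome where DNA enters and leaves it and help to pack nucleosome arrays. Mammals have several replication-dependent H1 genes in the large histone cluster, a replacement form, H1f0, that builds up in quiescent and differentiating cells, an outlying form, H1fx, and germ line forms such as Hist1h1t of the testis. Replication-dependent histone mRNAs end in a stem-loop and mostly lack a poly(A) tail, so a library of polyadenylated RNA holds few of their reads. H1f0 and H1fx mRNAs are polyadenylated, and levels are therefore not compared between the classes of H1 gene.

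The table held counts for 24421 gene symbols, with totals of 44441713 to 68445181 counts per library. Genes with enough counts numbered 14800, of which 705 lie on chromosome 6, 790 on chromosome 8, 13275 on the other chromosomes, and 30 have no position. The 2 controls differed from each other more than the 2 TKO libraries did. CPM below are counts scaled to a common library size. Among the 12294 genes that averaged 1 CPM or more, the log2 ratio of control 1 to control 2 had an SD of 0.55 and that of TKO 1 to TKO 2 an SD of 0.23. At least 2-fold apart were 726 genes between the controls and 35 between the TKO libraries. The difference between the controls ran with the GC content of the exons (Spearman rho across 12210 genes -0.73, a description, since all genes come from the same pair of libraries). Among 10 bins of genes by GC, in the lowest the median of control 1 lay 0.73 above control 2 on the log2 scale, and in the highest it lay at -0.58. The mean of the TKO libraries against the mean of the controls lay between -0.16 and 0.09 over the 10 bins. The ribosomal precursor transcript Rn45s took 5.02% to 8.13% of the counts. Markers of embryonic stem cells were present in all 4 libraries: Pou5f1 stood at 979 to 2040 CPM, Nanog at 1290 to 2080 CPM and Sox2 at 109 to 172 CPM. Of 12 such markers, Lin28a was the 1 that passed the test used below. For the others, the lack of a call does not mean that they were unchanged.

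**Figure D1:**
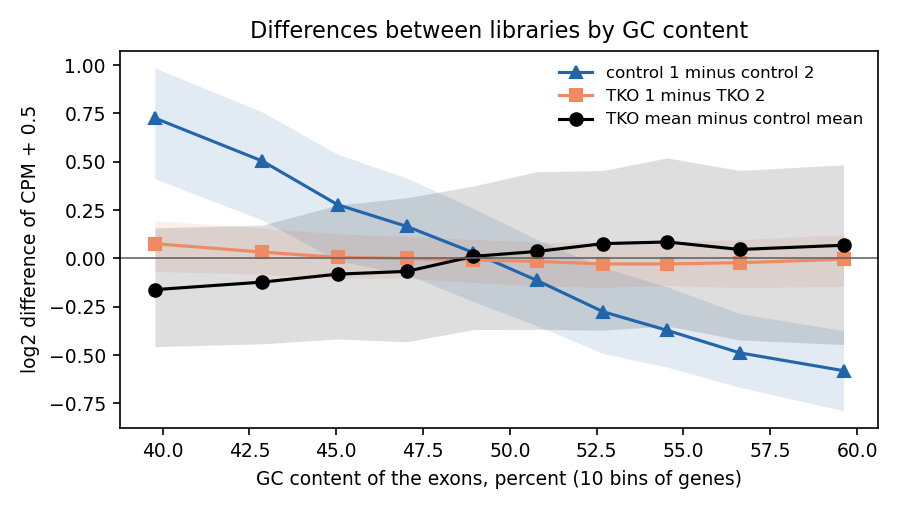
Difference between libraries, as log2(CPM + 0.5), against the GC content of the exons in percent, in 10 bins of genes. Points are bin medians and bands the middle 50% of genes. The controls differ from 0.73 at low GC to -0.58 at high GC, while TKO 1 and TKO 2 stay within 0.08 of each other.

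The 3 targeted genes carried no counts in the TKO libraries. Hist1h1c had 0 and 0 counts in the TKO libraries and 100 and 102 in the controls, Hist1h1d 0 and 0 against 159 and 231, and Hist1h1e 0 and 0 against 115 and 161. Taking 3 counts over the pair of TKO libraries as the floor, they were at least 66-fold, 129-fold and 91.3-fold lower. All 3 passed the test, with adjusted p of 0.0037, 0.0018 and 0.0027 (edgeR's quasi-likelihood test, Benjamini-Hochberg over all genes tested, here and below). All 4 libraries thus match their labels at these genes, although few reads came from them even in the controls.

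The promoters of the 3 deleted genes and of H1f0 are printed to set the replication-dependent genes beside the replacement gene, H1f0. Shown are the 150 bases before 1 start of each gene (RefSeq, GRCm38.p6), 5′ to 3′ on the gene's own strand. For Hist1h1d that start lies inside the span given for the gene (chr13:23553262-23560686), not at its first base. Capitals mark AAACACA, known as the H1 box, and CCAAT, both searched on either strand. Bases further upstream were not searched.
Hist1h1c (chr13:23738657-23738806, plus strand): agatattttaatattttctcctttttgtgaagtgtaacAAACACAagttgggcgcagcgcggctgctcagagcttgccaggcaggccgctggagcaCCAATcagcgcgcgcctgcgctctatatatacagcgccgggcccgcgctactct
Hist1h1d (chr13:23554882-23555031, plus strand): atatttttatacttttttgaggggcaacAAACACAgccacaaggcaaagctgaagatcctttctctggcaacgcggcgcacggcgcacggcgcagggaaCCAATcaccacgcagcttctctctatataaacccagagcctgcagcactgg
Hist1h1e (chr13:23622559-23622708, minus strand): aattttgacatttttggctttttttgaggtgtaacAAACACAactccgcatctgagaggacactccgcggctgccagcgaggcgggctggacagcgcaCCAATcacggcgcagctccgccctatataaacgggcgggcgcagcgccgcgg
H1f0 (chr15:79028062-79028211, plus strand): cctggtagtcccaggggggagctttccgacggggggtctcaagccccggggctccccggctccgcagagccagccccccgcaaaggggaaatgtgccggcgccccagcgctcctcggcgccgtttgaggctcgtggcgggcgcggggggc
The 3 deleted genes each hold both motifs once, as do Hist1h1t and, with a second CCAAT, Hist1h1b. Hist1h1a holds CCAAT alone, and neither run of letters is in these 150 bases of H1f0 or H1fx. Of 32851 promoter windows of this length, 3.53% hold AAACACA and 24.5% hold CCAAT. A match is a run of letters and says nothing of binding.

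H1f0, the replacement linker histone, rose in the TKO cells. Its counts were 17618 and 28346 in the TKO libraries and 2551 and 2881 in the controls. Both TKO libraries lay far above both controls, at 417 ± 21.3 CPM against 48.9 ± 9.9 CPM (SD, n = 2 each). The log2 fold change, TKO minus control here and throughout, was 3.09 ± 0.23 (SE) with adjusted p = 0.00059, an 8.54-fold rise. The testis form Hist1h1t went from 0 and 0 counts in the controls to 9 and 24 in the TKO libraries, at least 10.7-fold higher over the same floor (adjusted p = 0.04). Its call was lost when TKO replicate 1 was left out, and it was not tested when TKO replicate 2 was left out. The other somatic forms did not pass. Hist1h1a stood at a log2 fold change of -0.64 ± 0.36 (adjusted p = 0.26), Hist1h1b at 0.82 ± 0.37 (0.18) and H1fx at 0.02 ± 0.37 (0.98). For H1fx the controls, at 20.2 and 46.5 CPM, lay on both sides of the TKO libraries, at 34.5 and 33.2 CPM. Each control alone gave H1fx a call, and in opposite directions: -0.46 without control replicate 1 (adjusted p = 0.00092) and 0.74 without control replicate 2 (4.1e-05). Hist1h1a was called lower without control replicate 1 (-0.98) and Hist1h1b higher without control replicate 2 (1.4). With offsets for GC content, over all 4 libraries, Hist1h1b was also called higher (0.84, adjusted p = 0.037). H1foo, H1fnt and Hils1 had no counts in any library.

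**Figure D2:**
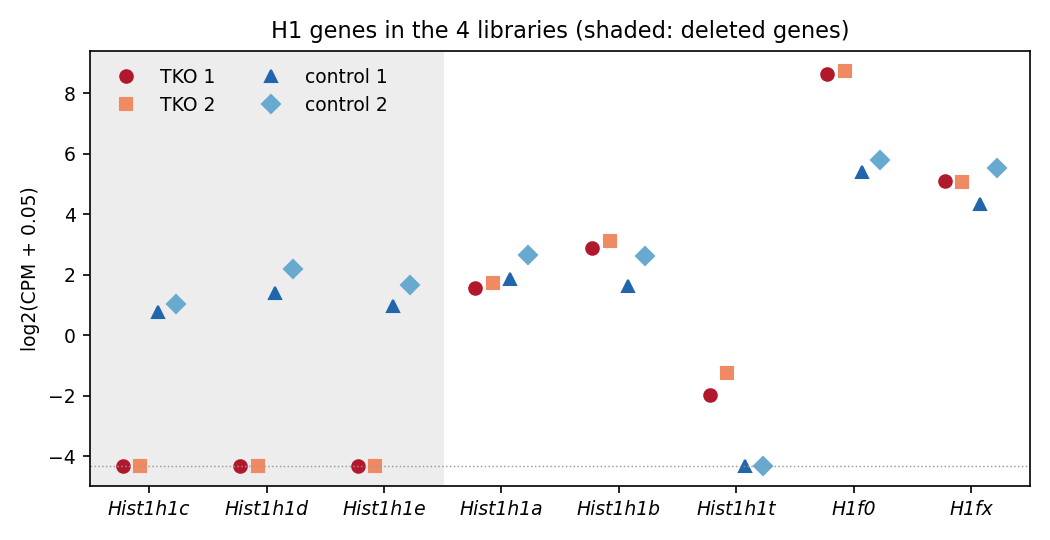
Level of each tested H1 gene in the 4 libraries, on a log2(CPM + 0.05) axis; the dotted line is a count of 0 and shading marks the deleted genes. Both TKO points of Hist1h1c, Hist1h1d and Hist1h1e lie on the line of 0, and both TKO points of H1f0 (402 and 432 CPM) lie above its controls (41.9 and 55.9 CPM).

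Changes ran in both directions and reached well beyond the H1 genes. Over all chromosomes 1271 genes were higher (8.59% of those tested) and 1247 lower (8.43%). Off chromosomes 6 and 8 there were 1186 higher (8.93%) and 876 lower (6.6%). Both TKO libraries lay above both controls for 31.4% of all genes tested and below both for 30.6%. The higher genes had a median log2 fold change of 1.9, and 350 of them averaged under 0.5 CPM in the controls. The lower genes had a median of -1.52, and 157 of them averaged under 0.5 CPM in the TKO cells. All 2240 called genes averaging at least 1 CPM differed in the same direction from each control taken alone. The call used the same 4 libraries and favours such genes, so this is no separate evidence. The number called turned on single libraries. Without control replicate 1 there were 3610 higher and 3505 lower, without control replicate 2 3994 and 4038, without TKO replicate 1 636 and 532, and without TKO replicate 2 617 and 488. In each of these fits 1 lone library is taken to vary like the remaining pair.

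Off chromosomes 6 and 8, the genes with the greatest rises at a mean of at least 5 CPM were low in the controls. Runx1, a transcription factor of blood formation, had 976 and 1290 counts in the TKO libraries and 12 and 3 in the controls, a log2 fold change of 7.29 ± 0.46 (adjusted p = 0.00038). Mall, a membrane protein of the MAL family, had 439 and 844 against 0 and 5 (7.92 ± 0.71), and Adh1, an alcohol dehydrogenase, 1108 and 1974 against 5 and 15 (7.24 ± 0.49). Both TKO libraries lay far above both controls for each. Chrna4, a nicotinic acetylcholine receptor subunit, rose from 1.0 ± 0.0927 to 76.1 ± 6.93 CPM (6.25 ± 0.26), and Bglap3, of the osteocalcin family, from 1.7 ± 0.0874 to 86.2 ± 2.02 CPM (5.66 ± 0.24). Others chosen by the same rule were Spint5 (6.45), the protease inhibitor Serpina3m (6.2), Dppa1 (5.81) and H2-Eb1, a chain of MHC class II (5.74).

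Among the greatest falls off chromosomes 6 and 8, Foxn4, a forkhead factor of retinal progenitors, had 13 and 12 counts in the TKO libraries and 955 and 1105 in the controls, and Rac2, a small GTPase of blood cells, 12 and 10 against 817 and 959. Their log2 fold changes were -6.3 ± 0.39 and -6.27 ± 0.41, and the groups did not come near each other. Lefty2, an inhibitor of Nodal signals, fell from 59.6 and 47.6 CPM to 2.97 and 4.16 CPM (-3.9 ± 0.28, adjusted p = 0.00055). Dmrt1, a transcription factor of the gonad, stood at 12.5 ± 0.751 CPM in the controls and 0.678 ± 0.462 CPM in the TKO cells (-4.25 ± 0.49). Others were Nkx1-2 (-4.78), Padi2 (-4.48), the adaptor Grb7 (-4.47), Rasgrp1 (-4.03) and Calca, the calcitonin gene (-3.9).

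Some genes passed from almost no counts to many. At most 3 counts in both controls and at least 100 in both TKO libraries were found for 14 genes, 13 of them off chromosomes 6 and 8. H19, a maternally expressed imprinted RNA, had 187 and 321 counts in the TKO libraries and 0 and 0 in the controls, at least 172-fold higher over the floor of 3 counts per group. Slc6a3, the dopamine transporter, had 177 and 250 against 0 and 0 (at least 147-fold), and Akr1c18, a steroid dehydrogenase, 132 and 207 against 0 and 0 (at least 116-fold). Wfdc15a had 197 and 349 against 0 and 1, and Ly6c1, a surface antigen of the Ly6 family, 167 and 225 against 1 and 0. The reverse held for 7 genes, 6 of them off chromosomes 6 and 8. Besides Hist1h1c, Hist1h1d and Hist1h1e they include Gngt2, a transducin subunit of cones, with 1 and 1 counts in the TKO libraries and 233 and 328 in the controls. Gcnt3, a mucin-type glycosyltransferase, had 0 and 2 against 194 and 117.

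Lists of related genes are given below by how many tested members rose or fell and by the median log2 fold change of those tested. Over all genes tested the median was -0.02, with 8.59% higher and 8.43% lower. Off chromosomes 6 and 8 the shares were 8.93% higher and 6.6% lower. Some of the counts below lie near these shares. Their members were chosen with earlier results of these data known, and nothing particular to a list is read from its count.

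Genes of the 2-cell stage, which a small share of cultured stem cells express at any time, rose together. Of 32 tested 26 rose and none fell, with a median of 4.05; 20 to 29 rose over the alternative analyses. The 5 Zscan4 genes tested, which act at telomeres in stem cells, all rose. Zscan4c stood at 22.5 and 26.7 CPM in the TKO libraries against 2.12 and 0.892, and Zscan4d at 23.9 and 23.2 against 1.84 and 0.427. Zfp352 had 260 and 425 counts against 15 and 1 (5.46), Sp110 90 and 155 against 3 and 2 (5.57), and Tdpoz3 72 and 55 against 2 and 0 (5.97). Usp17lb, a deubiquitinase of a multicopy family, had 607 and 984 counts against 39 and 40 (4.35). The TKO libraries lay well above both controls for each of these, though control 1 lay well above control 2 for Zscan4c and Zscan4d. Dux, the transcription factor that switches on many of these genes in embryos, had 10 and 15 counts against 10 and 0 and did not pass (adjusted p = 0.5). Neither did Obox6 (-0.46) or Eif1a (-0.39). Zscan4, Tcstv, Usp17l, Tdpoz and Prame genes lie in families of near-identical copies, so how reads fell among the members is uncertain. In bulk samples more cells with such RNA and more of it per cell cannot be told apart, here or for the other lists.

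Genes of the germ line that promoter methylation keeps silent in somatic cells rose or did not pass. Of 19 tested 12 rose and none fell (median 1.55), and off chromosomes 6 and 8 it was 7 of 13. Fkbp6, a chaperone needed in meiosis, rose from 3.46 and 4.0 CPM to 32.1 and 34.8 CPM (3.17, adjusted p = 0.00059). Dazl, an RNA-binding protein of germ cells, rose from 39.4 and 24.8 to 96.5 and 103.0 CPM (1.63, 0.0073), and Tex101, a surface protein of germ cells, from 0.361 and 0.291 to 6.26 and 7.59 CPM (4.39, 0.00078). The controls were apart from the TKO libraries in each case. Ddx4 (0.16), Mael (0.87) and Sycp3 (-1.37) did not pass. Of 18 piRNA pathway genes 6 rose and none fell (median 0.78). Piwil2, a PIWI protein of early germ cells, went from 5.6 and 4.58 to 25.1 and 22.6 CPM (2.23, adjusted p = 0.0016). Of 16 meiosis genes tested 1 rose, Hormad2 (1.4), and 2 fell, Stra8 on chromosome 6 (-2.09) and Syce2 on chromosome 8 (-1.21).

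The Rhox homeobox genes, a cluster of the X chromosome active in reproductive tissues and placenta, rose in 5 of 6 tested (median 2.84), and 5 were called higher in every alternative analysis. Rhox6 stood at 25.1 and 28.6 CPM in the TKO libraries and 2.99 and 3.08 in the controls, and Rhox5 at 47.1 and 59.7 against 14.3 and 18.4. Rhox9, Rhox10 and Rhox13 had log2 fold changes of 3.28, 3.67 and 2.54, and Rhox1 did not pass (0.44, adjusted p = 0.6). The DNA methylation machinery showed 3 changes among 14 genes. Dnmt3l, the catalytically inactive partner of the de novo methyltransferases, rose from 16.9 and 24.8 to 126.0 and 134.0 CPM (2.64 ± 0.25, adjusted p = 0.0011). Dnmt3b rose less (0.87), Dnmt3a fell (-1.15), and the rest did not pass.

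Other chromatin genes changed singly. None of 23 chromatin remodellers and histone chaperones passed in edgeR (median -0.21), with 4 lower at an unadjusted p under 0.05 and 2 lower in DESeq2. Without control replicate 2 there were 9 lower, and without control replicate 1 there were 4 higher. Smarca5, the ISWI remodeller, stood at -1.13 (adjusted p = 0.054) with controls of 165.0 and 82.0 CPM. In a short list of core histone genes 2 of 11 tested rose and 2 fell. Those that rose were Hist3h2ba (3.54), with 54 and 32 counts in the TKO libraries against 4 and 4, and Hist3h2a (2.54). The fallen pair encode the macroH2A forms: H2afy2 went from 40.8 and 41.0 to 8.9 and 8.89 CPM (-2.2 ± 0.21, adjusted p = 0.0011) and H2afy from 276.0 and 302.0 to 129.0 and 144.0 CPM (-1.08). In PRC1, the ubiquitin-ligase complex of Polycomb, 2 of 22 genes rose, the chromobox subunit Cbx8 (2.88) among them, and the 3 that fell, Pcgf1 (-1.66), Rybp (-1.52) and Phc1 (-0.82), all lie on chromosome 6. In PRC2 the accessory subunit Phf19 was the 1 that passed (-3.27, from 4.74 and 6.89 to 0.731 and 0.488 CPM) among 12 tested. The architectural protein Hmga2 rose (1.66), and Hmgn5 (-1.08) and Hmgb2 of chromosome 8 (-0.89) fell.

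Naive pluripotency genes stayed expressed. Of 22 tested 5 rose, 2 fell and 15 did not pass (median 0.21); the number that rose was 2 without TKO replicate 1 and 13 without control replicate 2. Tfcp2l1, a transcription factor of the naive state, rose from 1780 and 1610 to 5420 and 4910 CPM (1.61 ± 0.19, adjusted p = 0.0024), and its neighbours on chromosome 1 are described below. Fgf4, the autocrine FGF of stem cells, fell (-1.0) and so did Gbx2 (-1.48). Esrrb (0.21), Klf4 (-0.25), Pou5f1 (0.7, adjusted p = 0.073) and Nanog (0.55, 0.092) did not pass. Lin28a, the RNA-binding protein that blocks let-7 maturation, fell from 69.3 and 76.4 to 6.53 and 4.35 CPM (-3.75 ± 0.28, adjusted p = 0.00059), with no library near those of the other group. Among genes of the formative and primed states 3 of 16 rose and 3 fell; Foxd3 (2.47) and Grhl2 (2.58) were among the first and Zic2 (-1.52) and Sall2 (-1.23) among the second.

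Trophectoderm genes rose in 8 of 17 tested and fell in 1 (median 1.15), and Cdx2, the factor that specifies this lineage, did not pass. Keratins of simple epithelia were among those that rose: Krt18 went from 5.55 and 7.9 to 72.9 and 79.9 CPM (3.51, adjusted p = 0.00059), Krt7 from 0.936 and 0.951 to 14.2 and 12.5 CPM (3.82) and Krt8 from 13.2 and 20.9 to 55.7 and 53.9 CPM (1.68). These 3 keratin genes lie in 1 cluster on chromosome 15. Krt19 on chromosome 11 rose as well (2.43), as did Id2 (2.13). Cdx2 stood at 0.525 and 0.549 CPM against 0.886 and 1.32 (-1.03, adjusted p = 0.27), Gata3 did not pass (1.64, 0.095), and Elf5 had 1 count in all. Eomes (1.15) and Tfap2a (1.1) rose, and Tfap2c fell (-1.07). Prl3d1, made by trophoblast giant cells, had no counts. In the epithelial list 5 of 17 rose and 5 fell, Krt42 among the second (-3.07). Snai1, a repressor of epithelial genes, rose from 0.64 and 2.44 to 34.5 and 39.7 CPM (4.6, adjusted p = 0.0026).

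Markers of other lineages, and of cells that a culture could hold, were called in both directions. Primitive endoderm genes rose in 3 of 17 and fell in 1, mesendoderm genes 1 and 1 of 13, neuroectoderm genes 2 and 2 of 13, and fibroblast or feeder markers 1 and 2 of 10. The summed level of the feeder markers was 1150 to 1180 CPM in the TKO libraries and 1180 to 1360 CPM in the controls, of which Fn1, which stem cells also make, was 1050 to 1200 CPM. Postn, S100a4 and Fap had no counts in any library, and Dcn 1 count. Of 9 blood and endothelial genes tested Runx1 and Cdh5 rose and Kit fell; their summed level was 371 to 383 CPM against 478 to 540 CPM. Ptprc, Hba-a1, Hbb-bh1 and Lyz2, which define blood cells, had no counts in any library.

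The Hox genes that were called differed in direction by cluster. Of 28 tested 5 rose and 9 fell, and the rest did not pass. All 5 that rose were HoxD genes on chromosome 2. Hoxd9 stood at 16.2 and 16.5 CPM in the TKO libraries and 1.02 and 1.14 in the controls (3.92, adjusted p = 0.00049), and Hoxd8 at 12.9 and 11.4 against 0.722 and 0.466 (4.34). HoxA genes on chromosome 6 fell in 7 of 8 tested. Hoxa5 went from 6.11 and 6.54 to 1.3 and 0.747 CPM (-2.64, adjusted p = 0.0048). In HoxC, Hoxc4 (-1.78) and Hoxc5 (-1.96) fell, and no tested HoxB gene passed. Off chromosome 6 the count was 5 higher and 2 lower of 20 tested, with a median of 0.46, against -0.52 over all 28.

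**Figure D3:**
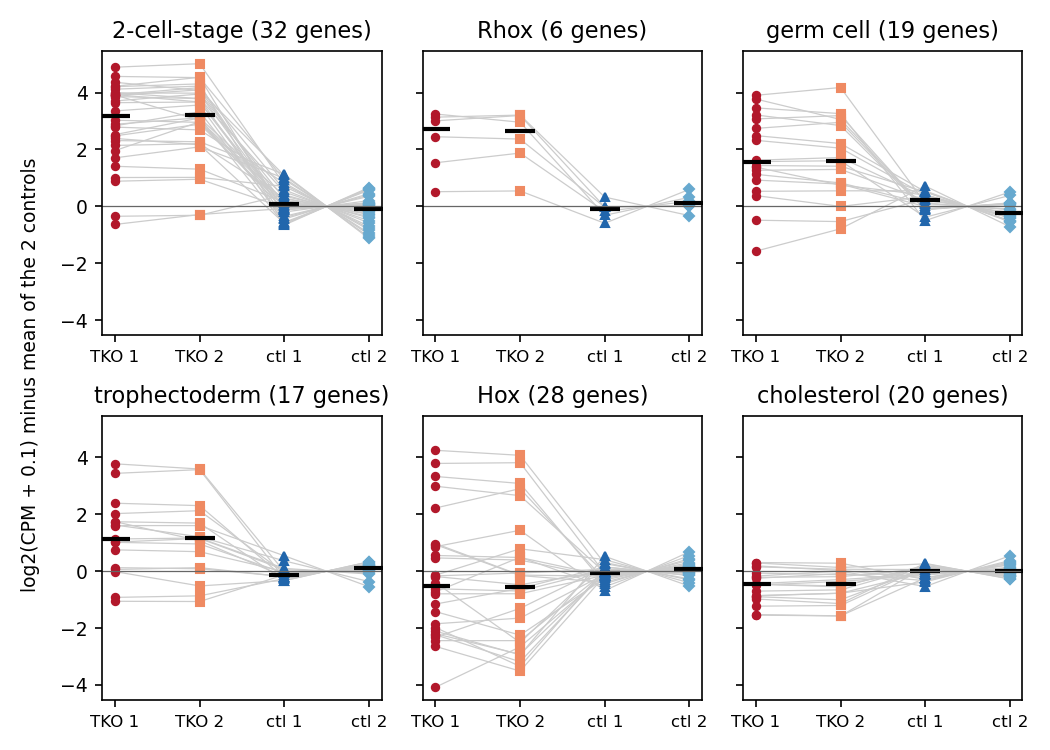
Tested members of 6 gene lists in each library, as log2(CPM + 0.1) minus the mean of the 2 controls; points are genes, grey lines join a gene across libraries and black bars are medians. The 2-cell-stage and Rhox medians of both TKO libraries sit above every control median, while Hox genes spread to both sides.

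Most imprinted genes tested did not pass, and those called went in either direction. In the H19-Igf2 and Kcnq1ot1 domains 2 of 13 rose and 1 fell, and in the Dlk1-Meg3 domain 2 of 6 rose. In the Peg3 and Snrpn domains 1 of 10 rose and 1 fell. On chromosome 6 3 of 10 fell, and of other imprinted genes 4 of 19 rose. Beside H19, with Igf2 at 2.03 and 1.34 against 1.46 and 1.28 CPM (0.29, no call), Dio3 of the Dlk1 domain rose from 1.0 and 2.48 to 16.1 and 17.8 CPM (3.29, adjusted p = 0.0033). Dlk1 itself passed narrowly (2.29, adjusted p = 0.048), a call lost under 6 of 13 alternatives, and Meg3 did not pass (1.38, 0.45). Peg13 rose (4.18) and Peg3, a zinc finger gene expressed from the paternal copy, fell (-1.7). Igf2r and Gnas rose by 0.89 and 0.87. Mest, also paternally expressed, on chromosome 6 (chr6:30733506-30748466), fell from 269 and 298 to 10.1 and 11.0 CPM (-4.75 ± 0.22, adjusted p = 0.00023), a 26.9-fold drop, while its neighbour Copg2 stood at -0.2.

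Signalling genes changed in small numbers. In the Nodal and TGF-beta list 4 of 20 fell and none rose: Lefty2, Tgfb1 (-2.04), Lefty1 (-1.24) and the receptor Acvr1b (-0.91). Of Wnt feedback and target genes 3 of 17 fell and 1 rose, Tcf7l1 on chromosome 6 (1.24). Notum, a secreted Wnt inhibitor, was at 2.03 and 2.18 CPM in the TKO libraries (-3.34, adjusted p = 0.00061). The Id genes, targets of BMP, split: Id3 rose from 12.1 and 22.8 to 130.0 and 146.0 CPM (2.99) and Id2 rose (2.13), while Id1 fell (-2.13). Of 18 FGF and ERK feedback genes 2 fell, Fgf4 and Fgf17 (-3.16), and 2 rose, Spry1 (1.05) and Spred1 (0.88). The Spred1 call was kept under only 7 of 13 alternatives. Of 21 axon guidance genes 6 rose and 5 fell; Slit3 had 132 or more counts in each TKO library and none in the controls (at least 113-fold), and Ntn1 went from 20.9 and 31.5 to 118.0 and 124.0 CPM (2.21).

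Among metabolic and stress genes, metallothioneins and some cholesterol and glycolysis genes fell. Cholesterol synthesis genes fell in 6 of 20 and rose in none (median -0.46), with 2 lower without TKO replicate 1 and 14 without control replicate 1; Dhcr7 went from 152.0 and 211.0 to 62.2 and 60.2 CPM (-1.57) and Insig1 from 144.0 and 125.0 to 72.0 and 66.8 CPM (-0.95). Hmgcs1 (0.19) and Sqle (0.11) did not pass. All 4 metallothioneins, zinc-binding proteins encoded side by side on chromosome 8, fell; Mt4 had 0 and 4 counts in the TKO libraries against 865 and 1105 and Mt2 32824 and 60729 against 129649 and 223593. For Mt1 and Mt2 the controls differed from each other, Mt1 with 2880 and 5600 CPM in the controls and 1770 and 1950 CPM in the TKO libraries. Glycolysis and hypoxia genes fell in 6 of 23 and rose in none, but off chromosomes 6 and 8 in 2 of 18; over all chromosomes 2 were lower without TKO replicate 1 and 15 without control replicate 1. Among p53 targets 3 of 22 rose, Plk2 (1.78), Ccng1 (1.3) and Btg2 (1.13), and Gdf15 fell (-1.35); the number that rose was 1 without TKO replicate 1 and 14 without control replicate 1. Integrated stress response genes fell in 4 of 22, with 1 lower without TKO replicate 1 and 11 without control replicate 1. None of 30 cytosolic ribosomal protein genes passed in edgeR, with 7 higher at an unadjusted p under 0.05, 3 higher in DESeq2 and 29 higher without control replicate 2. None of 21 oxidative phosphorylation genes passed in edgeR or DESeq2, with 3 higher at an unadjusted p under 0.05 and 12 higher without control replicate 2.

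Chromosomes 6 and 8 had the lowest medians of the autosomes. On chromosome 8 180 of 790 genes were lower (22.8%) and 31 higher, and 85.9% of the 661 genes averaging at least 1 CPM had a fold change below 0, with a median of -0.55. Chromosome 6 had 191 lower of 705 (27.1%) and 50 higher, with a median of -0.48. Against control 1 and control 2 taken alone the medians were -0.47 and -0.57 for chromosome 8 and -0.49 and -0.4 for chromosome 6. Next by distance from 0, but above it, were chromosome 3 at 0.21 and chromosome 19 at 0.14. The other autosomes and X lay within 0.11 of 0. By the naming rule Mt4, Tenm3 (-4.18), Apela (-3.08), an early peptide hormone, and Sall1 (-2.57) fell furthest on chromosome 8, and Osgin1 (3.95), Pdlim3 (3.4), Mmp2 (3.14) and Cpne2 (2.85) rose. Chromosome 6 had Mest, the lactate dehydrogenase subunit Ldhb (-3.68) and Slc6a6 (-2.87) at the low end. Chl1 (5.76), Gpnmb (5.31), Foxi3 (5.23) and Elmod3 (2.75) were at its high end.

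**Figure D4:**
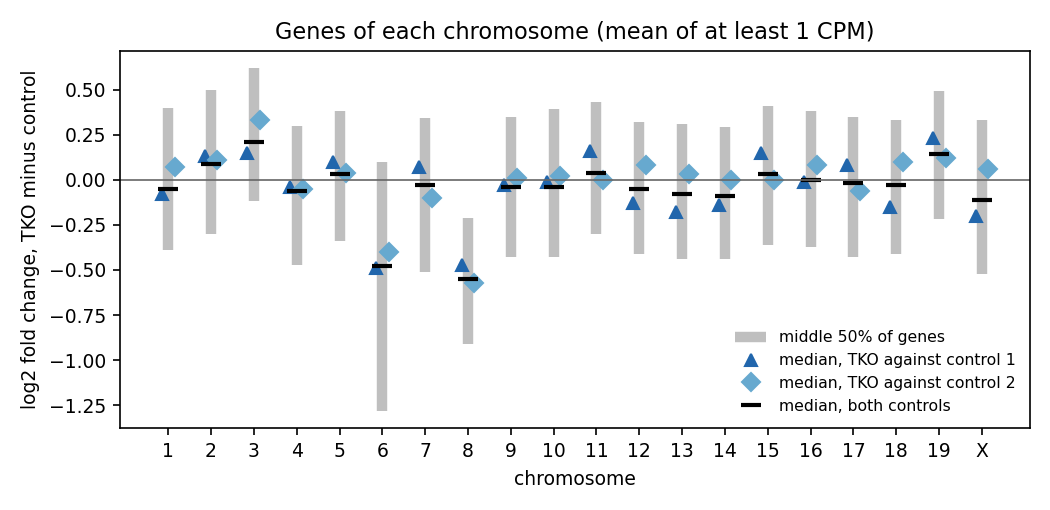
Median log2 fold change of the genes of each chromosome against control 1, control 2 and both; grey bars are the middle 50% of genes. Chromosomes 6 and 8 lie at -0.48 and -0.55 against both controls, and no other chromosome plotted has a median beyond 0.21 from 0.

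The shift of chromosome 8 ran along its length: all 23 windows of 5 Mb with at least 5 genes had a median below 0, from -1.1 to -0.18. On chromosome 6 it stood out in 3 blocks of neighbouring genes. These blocks were picked out after the values along the chromosome had been seen, so they are a description with no test. In the largest, from Gcfc2 to Rybp (chr6:81910562-100287358), 93 of 126 genes were lower and 1 higher, 117 lay below 0, and the median was -1.46, a 2.74-fold fall. Just before it Reg2 stood at -0.48 and just after it Shq1 at -0.4. The helicase subunit Mcm2 went from 675 and 835 to 267 and 261 CPM there, the hexokinase Hk2 from 213 and 213 to 67.4 and 64.4, and Ruvbl1, a chromatin ATPase, from 88.7 and 99.4 to 27.3 and 27.1. H1fx lies in this block and did not pass.

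A second block on chromosome 6, from Akr1b8 to Dennd2a (chr6:34354146-39558145), had 19 of 27 genes lower and none higher (median -1.56). The third was shorter, from Nfe2l3 to Hoxa7 (chr6:51432669-52218573). It had 13 of 14 lower (median -2.52) and held Cbx3, encoding HP1 gamma (from 52.0 and 35.8 to 12.3 and 10.1 CPM), and 6 of the HoxA genes that fell. Hoxa9, just beyond its end, also fell. Next to it Cycs stood at 0.34 and Hibadh at 0.08. Outside the 3 blocks the other 422 genes of chromosome 6 had a median of -0.2, with 60 lower and 41 higher. They were not even along the chromosome. Windows of 5 Mb at 110 to 115, 130 to 135 and 140 to 145 Mb had medians of -0.61, -0.8 and -0.75. Those at 40 to 45, 45 to 50 and 70 to 75 Mb had medians of 0.1, 0.11 and 0.11. Against control 1 and control 2 taken alone the medians were -1.33 and -1.43 in the largest block, -1.57 and -1.4 in the second and -2.08 and -1.95 in the third.

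Chromosome 1 held a block in the other direction, also picked out after the values were seen. From Tsn to Ddx18 (chr1:118298514-121567980) 18 of 20 genes were higher, with a median of 1.79, a 3.46-fold rise. Tfcp2l1 lies inside it. Beside it Gli2, an effector of hedgehog signals, went from 75.5 and 97.6 to 346 and 332 CPM (1.97), Dbi from 189 and 199 to 649 and 644 (1.74), and Steap3, an endosomal ferrireductase, from 35.3 and 48.5 to 210 and 214 (2.34). Tmem37 (-0.06) and Htr5b (-0.24) were the exceptions, and Actr3, the next gene beyond, stood at -0.12. A smaller block from Mapkapk2 to Nucks1 (chr1:131053700-131936321) had 9 of 10 higher (median 1.3). On the 16 chromosomes other than 1, 4, 6 and 8 the running median of 21 genes stayed between -0.69 and 0.82, and on chromosome 4 it reached 1.25 around Tnfrsf1b. DNA was not sequenced in these samples, and the part of gene copies in these blocks was not tested.

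**Figure D5:**
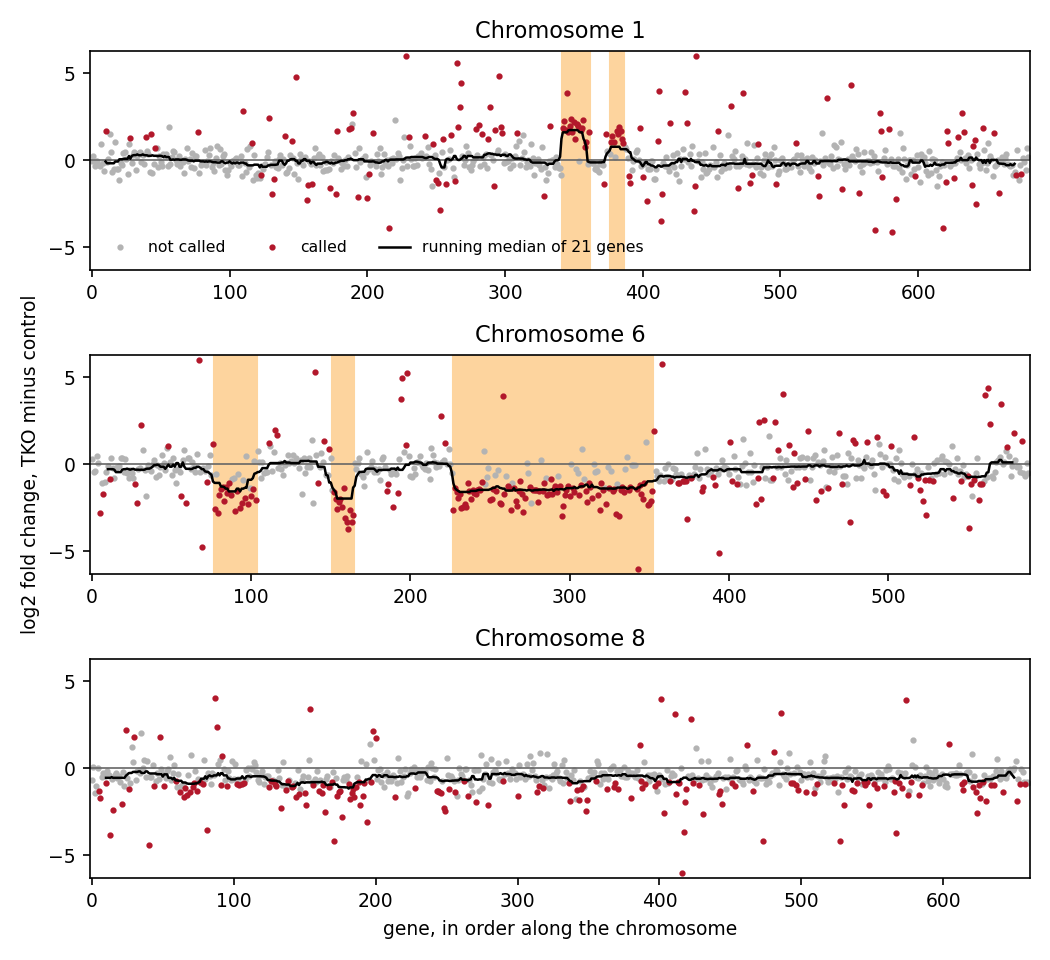
log2 fold change of genes averaging at least 1 CPM in their order along chromosomes 1, 6 and 8, with values beyond 6 drawn at 6; red points were called, the line is the running median of 21 genes and shading marks the blocks named in the text. The largest block on chromosome 6 holds 126 genes with a median of -1.46 and the first block on chromosome 1 holds 20 with a median of 1.79.

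Other groups of neighbours changed together. Off chromosomes 6 and 8 there were 43 runs of at least 3 adjacent tested genes called higher, with 166 of the 1186 genes called higher. The 21 runs called lower held 69 of the 876 genes called lower. Of all genes tested there, 8.93% were called higher and 6.6% lower. How many runs gene order alone would give was not tested. The chromosome 1 blocks hold 4 of the runs called higher, with 26 genes, and 39 runs with 140 genes lie outside them. Several hold members of gene families. A run in the MHC region of chromosome 17 (chr17:34182030-34386162) joins Psmb9 and Tap1, the class II genes H2-Ab1, H2-Aa, H2-Eb1 and H2-Eb2, and Btnl1. These 7 genes had a median of 3.86, and H2-Eb1 had 824 and 1163 counts against 19 and 19. Sp110, Sp140 and Sp100 rose together on chromosome 1. Among runs that fell were the betaine-homocysteine methyltransferases Bhmt and Bhmt2 with Dmgdh, the kallikreins Klk13, Klk11, Klk10 and Klk8, and the keratins Krt16, Krt17 and Krt42. Members of such families share sequence, which makes their separate counts less certain.

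Among genes matched to a promoter, those called in either direction had a lower median number of CpG pairs there than those not called. Off chromosomes 6 and 8, counted from 250 bases before to 50 after the start for genes with 1 promoter in the RefSeq table, the median was 17 for higher, 18 for lower and 21 for genes not called. Fewer than 5 CpG were found at 15.7%, 11.5% and 7.57% of them. Promoters were matched for 759 of 1186, 521 of 876 and 7224 of 11213 genes, so these are descriptions of the matched genes with no test. Among genes averaging at least 20 CPM the medians were 21, 21 and 24.

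On the Y chromosome, of 6 genes tested 3 were lower and none higher. Uty stood at 0.959 and 0.732 CPM in the TKO libraries and 7.17 and 4.09 in the controls (-2.74 ± 0.42, adjusted p = 0.006). Ddx3y had 30 and 72 counts against 604 and 118 (-2.76), with control 1 far above control 2, and Zfy1 4 and 3 against 104 and 53 (-4.33). Xist, the RNA that silences an X chromosome in female cells, was at 1.9 to 4.65 CPM in the 4 libraries, with no call (-0.13, adjusted p = 0.89).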

How the data were processed

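RNA from the 4 samples was selected for poly(A) tails and made into libraries with a Lexogen kit, per the labels' protocols. The authors deposited raw counts per gene symbol, and the submitters' processing notes name cutadapt, STAR, HTSeq, DESeq2 and the build mm10, without versions. How HTSeq treated strand and shared sequence is not stated in those notes, so overlapping and near-identical genes are uncertain.

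Counts were tested with edgeR 4.0.16 (R 4.3.3), by the quasi-likelihood test after filterByExpr (minimum count 10, minimum total 15) and TMM scaling, with Benjamini-Hochberg adjustment over 14800 genes at 0.05 and no covariate. Levels are CPM after TMM. Library totals were 44441713 to 68445181 counts, so that 3 counts equal 0.0458 to 0.0685 CPM; such floors cover counting error only. The scripts were tested on simulated data. Promoters come from RefSeq, positions from RefSeq and GENCODE, and exon GC from GENCODE transcripts, all of GRCm38.p6, the assembly of mm10.

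Named genes were the 10 greatest rises and falls off chromosomes 6 and 8 and the 4 on each of those chromosomes, among called genes averaging at least 5 CPM, 2 clone-named genes being passed over. The H1 genes, genes that switched between at most 3 and at least 100 counts, the stem cell markers and called members of 54 lists were named too; further list members were named after their values were seen. The members and lists were chosen with earlier results of these data known, and the blocks, runs, windows and the GC offsets after the data were seen. Alternatives were DESeq2 1.42.0, other scalings, no filter, chromosomes 6 and 8 left out, a replicate block, GC offsets, a 2-fold minimum and each library left out. A few genes that the rule would name are not reported here.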

Additional observations from a re-analysis of the deposited data

How the results depend on the processing

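No gene called in either direction was called in the other under any of the 13 alternatives run. The counts moved by under 1.5 times with DESeq2 (1664 higher and 1696 lower), other size factors, library totals, scaling without chromosomes 6 and 8 and a 2-fold minimum. With no filter 1895 genes were lower, 1376 of them off chromosomes 6 and 8. Offsets for GC content, added after the data were seen, gave 2466 higher and 2471 lower, and 2334 and 1838 off chromosomes 6 and 8; the cause was not tested. Leaving out single libraries gave 617 to 3994 higher and 488 to 4038 lower, and off chromosomes 6 and 8 576 to 3779 and 348 to 3325. Whether same-numbered libraries were made together cannot be told from only 2 pairs. Their deviations correlated at 0.156 across 14800 genes. A replicate block gave 1732 higher and 1729 lower, with Hist1h1b among those higher (0.89, adjusted p = 0.037). Of 194 named genes that were called, 119 stayed called under every alternative that tested them, and 55 were lost only where 1 TKO library was left out. Signs turned for some genes that were not called. H1fx stood at -0.03 by library totals and -0.02 with scaling without chromosomes 6 and 8, and Tdgf1 at -0.05, 0 and, with those chromosomes left out, -0.03. Xist stood at 0.08 with GC offsets. With single libraries left out the range was -0.46 to 0.74 for H1fx, -0.63 to 0.67 for Xist, -1.05 to 0.02 for Tsix, -2.09 to 0.12 for Eif2s3y and -0.57 to 0.06 for Kdm6a. It was -0.12 to 0.43 for Eif2s3x, -1 to 0.16 for Ddx3x, 0 to 0.25 for Dppa5a and -0.12 to 0.22 for Tdgf1.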
